A study of Allium sativum with 42 samples.

Results

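Garlic (Allium sativum) gene IDs that begin with Asa0G were set against those that begin with Asa1G to Asa8G. The class was taken from the ID alone and used no measured value. It held 6020 of 58219 IDs, or 10.3%, numbered from 1 to 6020, and the other 8 classes held from 4925 to 7949 IDs each. Transcript levels came from RNA-seq of the cultivar Ershuizao in 42 libraries, 3 for each of 14 groups, deposited as FPKM, a level corrected for transcript length and for the mapped fragments of a library. Bulbs were sampled at 8 ages, every 5 days at 192, 197, 202, 207, 212, 217, 222 and 227 days, a period that began before the bulb expanded and closed when expansion had ended. The other tissues were buds labelled 10 days, roots, garlic sprouts, leaves and pseudostems (false stems of rolled leaf bases) labelled 212 days, and flowers labelled 217 days. Every group was labelled as this 1 field-grown cultivar, with no treatment named. Buds shared their labelled age with no other group, and flowers shared theirs with the 217-day bulbs alone.

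In the gene IDs of many plants the digit before the letter G gives the chromosome, and 0 is used for sequence that was not placed on any. Whether the garlic IDs follow this custom is not given in the sources used here. Such unplaced sequence is known, in other genomes, to be rich in repeats and recent gene copies, which assemblers find hard to order. Garlic cloves are storage buds that fill with fructans and storage proteins late in growth. The table pairs no ID with a gene name or product, so the genes are given by ID, no role is given for any of them, and the labelled tissues could not be checked against marker genes. Titles of the bulb libraries begin with LJ and those of the libraries labelled flowers with QSLJ, so they share letters. What the letters stand for was not checked, and flowers are named here by their label alone.

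Libraries held between 5.9 M and 35.4 M whole reads, as recovered from the FPKM steps. For a gene of the median Asa0G length, 1 FPKM stood for 4.04 reads in the shallowest library and 23.9 in the deepest. Nothing in the labels says that the 3 replicates of a group were separate plants, so p-values cover no more than the spread between the samples at hand, which may be technical. In bulk tissue, fewer cells of a type and less RNA per cell cannot be told apart. Replicate 2 of the 227-day bulbs stood apart from its group: its recovered counts differed from those of replicates 1 and 3 with a chi-square per degree of freedom of 213 and 199, against 23.6 between replicates 1 and 3. It had at least 5 FPKM of 205 genes that lay under 0.5 FPKM in each other library, and 47 of these were Asa0G genes (22.9%, where 14.3% of the genes that were under 0.5 FPKM in the other 41 libraries were Asa0G). Those 47 reached from 5.06 to 49.3 FPKM in it, with a median of 9.10. The same library had under 0.5 FPKM of 146 genes that had at least 5 FPKM in the other libraries, 12 of them Asa0G (8.22%, against 6.16% of the genes with at least 5 FPKM in the other 41 libraries). Whether it came from the same plant material as its group was not tested, and every mean of the 227-day bulbs holds it. Some results that hold this library are also given without it, and those of 227-day bulbs that are given once include it.

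A smaller share of Asa0G genes than of any other class was detected. Of the 6020 IDs, 1791 (29.8%) had no read in any of the 42 libraries, against 20.5% of the other IDs, which ranged from 19.5% to 21.4% by class. A mean of at least 1 FPKM in some group was reached by 2866 Asa0G genes (47.6%), against 61.3% of the others. Without replicate 2 of the 227-day bulbs these shares were 45.9% and 60.5%, and 32.3% of Asa0G IDs had no read, against 21.8% of the others. The gap was wider in proportion at higher levels. A mean of at least 10 FPKM in some group was reached by 1502 Asa0G genes (24.95%, against 37.3%), at least 100 FPKM by 322 (5.35%, against 8.63%) and at least 1000 FPKM by 23 (0.382%, against 0.891%).

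In single libraries, from 1829 to 2218 Asa0G genes had at least 1 FPKM, which is 30.4% to 36.8% of the class. The other IDs were detected at 42.9% to 51.7% in the same libraries. Asa0G had the lowest detection of the 9 classes in 42 of 42 libraries. The difference in detection averaged -14.0 percentage points over the libraries, with a pooled SD within groups of 0.333, and ranged from -15.1 to -11.8. Replicate 2 of the 227-day bulbs had the smallest gap, with 31.1% of Asa0G genes and 42.9% of the others detected in it. By group, the highest detection of Asa0G genes was in buds (36.4% ± 0.648, SD, n = 3) and the lowest in 197-day bulbs (31.2% ± 0.556). With the IDs at 0 in all libraries left out of both sides, 47.6% of Asa0G genes and 59.6% of the others were detected on average, a gap of -12.0 points. No test was made between the classes, since they are fixed sets of genes in the same libraries.

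**Figure D1:**
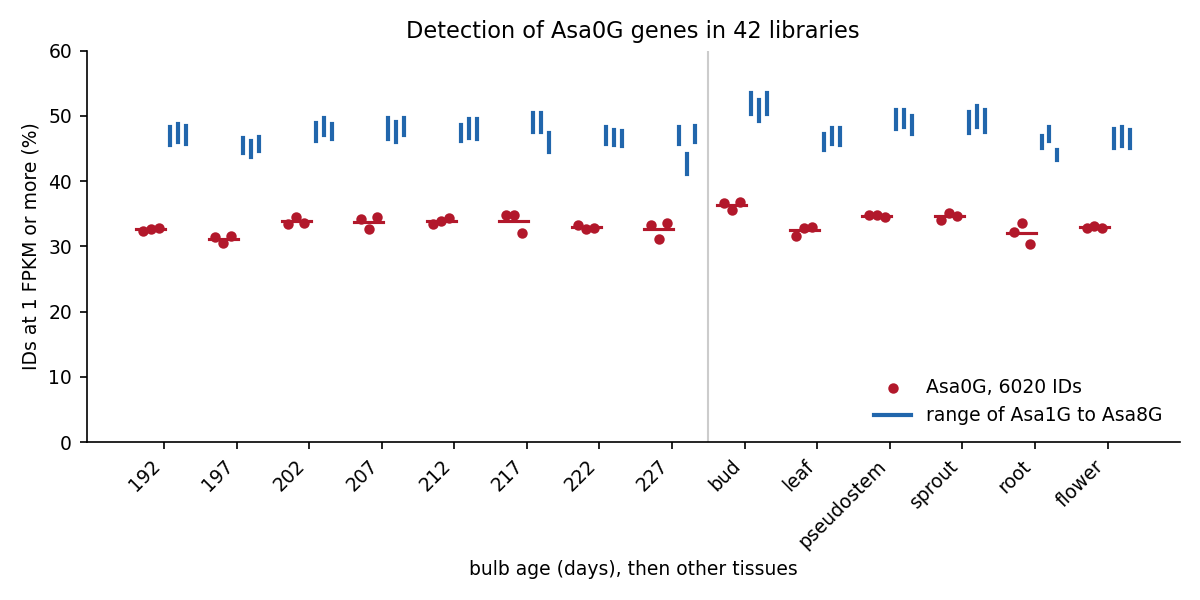
Percent of IDs with at least 1 FPKM (vertical axis) in each library, by bulb age and tissue (horizontal axis). Red points are Asa0G with a bar at the group mean, and each blue line spans the 8 other classes in 1 library; Asa0G lay between 30.4% and 36.8% and below the lowest other class in all 42 libraries.

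Asa0G genes were also shorter, where a length was recovered, and detected in fewer tissues. Coding length was recovered from the FPKM steps for genes above 0 in at least 20 libraries. These were 3008 of the 4229 Asa0G genes above 0 (71.1%, against 80.2% of the others). Their median length was 642 bases, with quartiles of 392.5 and 1135, while the other classes had medians from 717 to 792 bases. A mean of at least 1 FPKM in all 14 groups was found for 1379 Asa0G genes (22.9%) and for 18271 of the 52199 others. Among genes that reached this level in some group, 48.1% of Asa0G genes reached it in all 14, against 57.1% of the others. Just 1 group reached it for 330 Asa0G genes (5.48%), against 4.17% of the others. Without replicate 2 of the 227-day bulbs there were 234 such genes (3.89%), against 3.45% of the others.

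The group in which a gene was highest was spread much alike, apart from the 227-day bulbs. Of the 2866 Asa0G genes with at least 1 FPKM in some group, 1000 (34.9%) had their highest mean at a bulb age, against 32.3% of the others. Buds were the highest group for 18.2% of them, against 19.4%, roots for 13.4%, against 14.2%, and leaves for 11.8%, against 12.9%. The 227-day bulbs were the highest group for 203 Asa0G genes (7.08%), against 4.55% of the others. Without replicate 2 of that age they were the highest group for 40 Asa0G genes (1.45% of 2763), against 2.03% of the others, so this library set both the size and the direction of that difference.

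Although fewer of them were detected, Asa0G genes came to hold a large share of the transcript pool in old bulbs and in flowers. Their share of summed FPKM was 5.37% ± 0.0432 at 192 days (SD, n = 3) and 5.36% ± 0.0596 at 197 days. Bulbs of 202 days had 6.46% ± 0.291, of 207 days 7.04% ± 1.09, of 212 days 9.89% ± 0.496 and of 217 days 10.6% ± 4.13. The oldest bulbs had 18.8% ± 1.67 (222 days) and 17.9% ± 1.04 (227 days). Replicate 3 of the 217-day bulbs was the highest of its age, at 15.3%, against 8.19% and 8.15% in replicates 1 and 2, and replicate 3 at 207 days, at 8.30%, was also above its group.

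The 6 libraries of 222 and 227 days ranged from 16.8% to 20.2% and the 6 of 192 and 197 days from 5.29% to 5.41%, with no overlap. The share rose by 13.0 percentage points, to 18.4% ± 1.33 in the later libraries, against 5.36% ± 0.0468 in the earlier ones (n = 6 each, 2-sided exact permutation test, p = 0.00216, adjusted p = 0.00325 over 3 tests). That is the smallest p the 924 arrangements allow. Ages were pooled on each side because an exact permutation test of 3 libraries against 3 cannot go below p = 0.10. The test thus treated libraries of different ages on a side as replicates. Without replicate 2 of the 227-day bulbs the difference was 13.3 points. Counted in recovered reads, which do not correct for length, the difference was 9.94 points.

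Flowers were the other tissue with a large share, 17.1% ± 1.43, with 18.8%, 16.0% and 16.7% in the 3 libraries. Pseudostems had 6.27% ± 0.216, sprouts 6.11% ± 0.205, leaves 5.83% ± 0.0580, buds 5.80% ± 0.0120 and roots 5.22% ± 0.188. In those 5 tissues, and in bulbs up to 207 days, Asa0G held the smallest mean share of the 9 classes. It was the first in each library of 222-day bulbs and of flowers. By group means it was the sixth of the 9 at 212 days, the fifth at 217 days and the third at 227 days, and the ranks at 217 and 227 days each rested on 1 library. At 227 days Asa1G (20.2% ± 5.64) and Asa5G (17.9% ± 0.352) were the classes above it or level with it. Without replicate 2, in which Asa1G held 26.7%, Asa0G was the first at 227 days, with 18.5%, followed by Asa5G with 17.9%. Without replicate 3 of the 217-day bulbs it was the eighth at that age, with 8.17%, and without replicate 1 or 2 of the 207-day bulbs it was the eighth at theirs, with 7.39% and 7.33%.

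**Figure D2:**
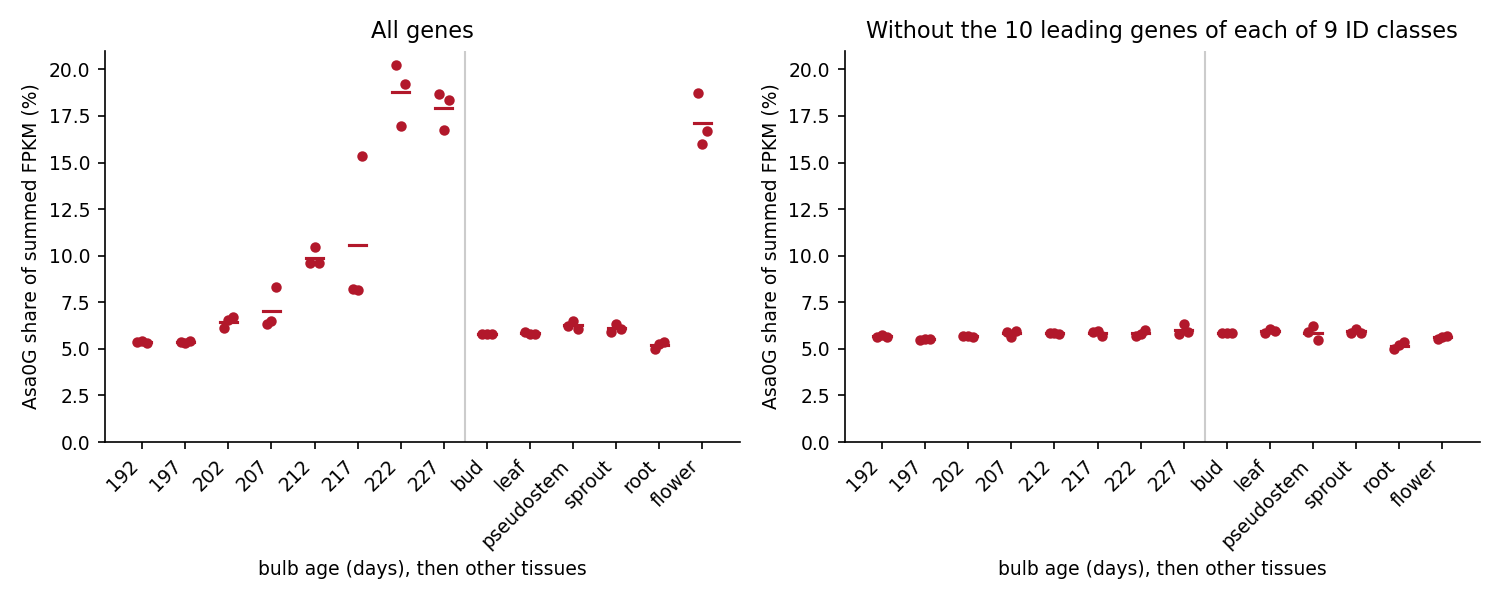
Asa0G share of summed FPKM in percent (vertical axes) by bulb age and tissue (horizontal axes), 1 point per library and a bar at the group mean. Left, all genes, with 16.8% to 20.2% in 222- and 227-day bulbs. Right, the same with the 10 genes of highest mean left out of each of the 9 classes. Group means there lay between 5.17% and 6.00%, the latter at 227 days, where replicate 2 had 6.31%.

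The rise lay in 3 genes, Asa0G05956.1, Asa0G00743.1 and Asa0G00303.1, which had the highest mean FPKM of the class over the 42 libraries and were singled out for it. Together they held 73.3% ± 1.20 of the Asa0G sum at 227 days and 73.3% ± 3.82 at 222 days (SD, n = 3). They held 41.7% ± 3.27 of it at 212 days and 0.0606% ± 0.0255 at 192 days. In flowers they held 70.4% ± 2.73, and in the 5 other tissues between 0.000613% and 0.0565% on average. Of all summed FPKM they made up 13.1% ± 0.621 at 227 days, against 0.00325% ± 0.00137 at 192 days. The whole class held 17.9% and 5.37% at these ages, so its other genes together did not add to the rise.

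Asa0G05956.1, with a coding length of 465 bases, had 70465, 5434 and 61918 FPKM in the 3 libraries of 227-day bulbs, against 7.24, 18.2 and 20.6 FPKM in those of 192-day bulbs. Replicate 2 was the low library at 227 days, and the ages did not overlap. The log2 difference was 10.90 ± 0.77 on the log2(FPKM + 1) scale (SE, limma, adjusted p = 4.36e-09), and 12.10 ± 0.62 without replicate 2 (adjusted p = 1.67e-10). Its means were 389 FPKM at 197 days, 5745 at 202, 7335 at 207, 25929 at 212, 30983 at 217 and 78167 at 222 days. At 217 days replicate 3 had 68213 FPKM and the other replicates 12694 and 12042. Flowers had 74350, 61144 and 68131 FPKM, while leaf and root libraries had at most 0.559.

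Asa0G00743.1 had the same length, 465 bases, and the opposite order of libraries at 227 days. It had 43980, 141128 and 45157 FPKM in 227-day bulbs, against 11.4, 26.5 and 26.5 FPKM in 192-day bulbs. The highest library was replicate 2, in which this gene alone made up 67.04% of the Asa0G sum, the largest part that any member held in any library. The log2 difference was 11.60 ± 0.53 (SE, limma, adjusted p = 1.55e-11) and 11.04 without that replicate. Its mean was 12704 FPKM at 212 days and 46865 at 222 days, and flowers had 47084, 34336 and 37234 FPKM. Among pseudostems, replicate 2 had 98.5 FPKM and the others 2.46 and 0.795.

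Asa0G00303.1, of 921 bases, showed the largest rise of the class. It had 47556, 10362 and 46857 FPKM in 227-day bulbs, against 1.48, 3.78 and 0.905 FPKM in 192-day bulbs, again with replicate 2 low. The log2 difference was 13.30 ± 0.66 (SE, limma, adjusted p = 4.00e-11) and 14.03 without replicate 2. Its mean was 9664 FPKM at 212 days and 41689 at 222 days, and 34507 ± 4165 in flowers (SD, n = 3). Leaf libraries had no read of it.

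The fourth Asa0G gene with a log2 rise of 5 or more that averaged 1000 FPKM or more in 227-day bulbs, limits chosen after seeing values, was Asa0G04472.1. It averaged 3210 ± 316 FPKM at 227 days and 38.1 ± 10.9 at 192 days (log2 difference 6.40 ± 0.44, limma, adjusted p = 3.57e-09), with 5545 ± 462 FPKM in flowers. All 4 genes were high in old bulbs and in flowers. Of 20 genes in the table within those limits, 4 were Asa0G, 6 Asa1G, 4 Asa5G, 3 Asa6G, 2 Asa3G and 1 Asa7G. Of the 30430 genes tested in bulbs, 2358 were Asa0G, 3514 Asa1G and 3816 Asa5G.

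**Figure D3:**
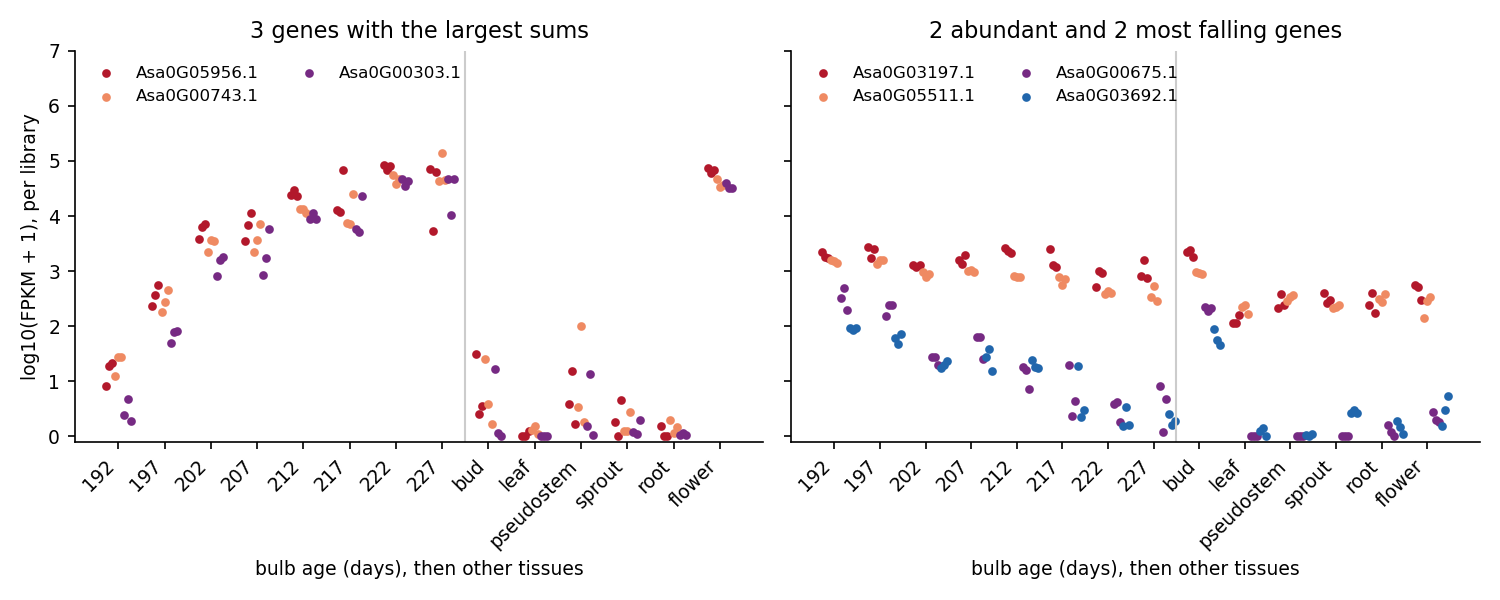
Levels as log10(FPKM + 1), 1 point per library (vertical axis), by bulb age and tissue (horizontal axis). Left, Asa0G05956.1, Asa0G00743.1 and Asa0G00303.1, at most 26.5 FPKM at 192 days and at least 34533 FPKM at 222 days and 31882 FPKM in flowers; right, Asa0G03197.1 and Asa0G05511.1, the most abundant members at 192 days, and Asa0G00675.1 and Asa0G03692.1, the largest falls.

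Among the genes most like these in level were genes of another ID class with the same coding length. Likeness was Pearson's r of log2(FPKM + 1) over the 42 libraries, a description without a test, since libraries of a group share their tissue. The nearest to Asa0G00743.1 were Asa1G00724.1 (r = 0.999) and Asa1G00696.1 (r = 0.999), both of 465 bases, and the nearest to Asa0G00303.1 were Asa1G00695.1 (r = 0.996) and Asa1G00702.1 (r = 0.991), both of 921 bases. Asa0G05956.1 was nearest to Asa0G00303.1 (r = 0.9904), which differs from it in length, and Asa0G00743.1 (r = 0.987). Their sequences were not used here, so whether they are near-identical copies is not known, and how reads were divided among them is uncertain.

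Summed over Asa0G05956.1, Asa0G00743.1, Asa1G00724.1 and Asa1G00696.1, which were grouped after their values were seen, the 465-base genes held 14.9%, 28.0% and 14.4% of all FPKM in the 227-day libraries. In the 222-day libraries they held 17.8%, 13.6% and 15.8%, and in flowers 15.7%, 12.1% and 13.0%. The Asa0G members had 41.6% of that sum in replicate 2 at 227 days, against 64.9% and 64.0% in replicates 1 and 3. In the 222-day and flower libraries the Asa0G part of it lay between 65.6% and 68.5%. Replicate 2 was the highest of these libraries in the sum and the lowest in the Asa0G part of it.

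**Figure D4:**
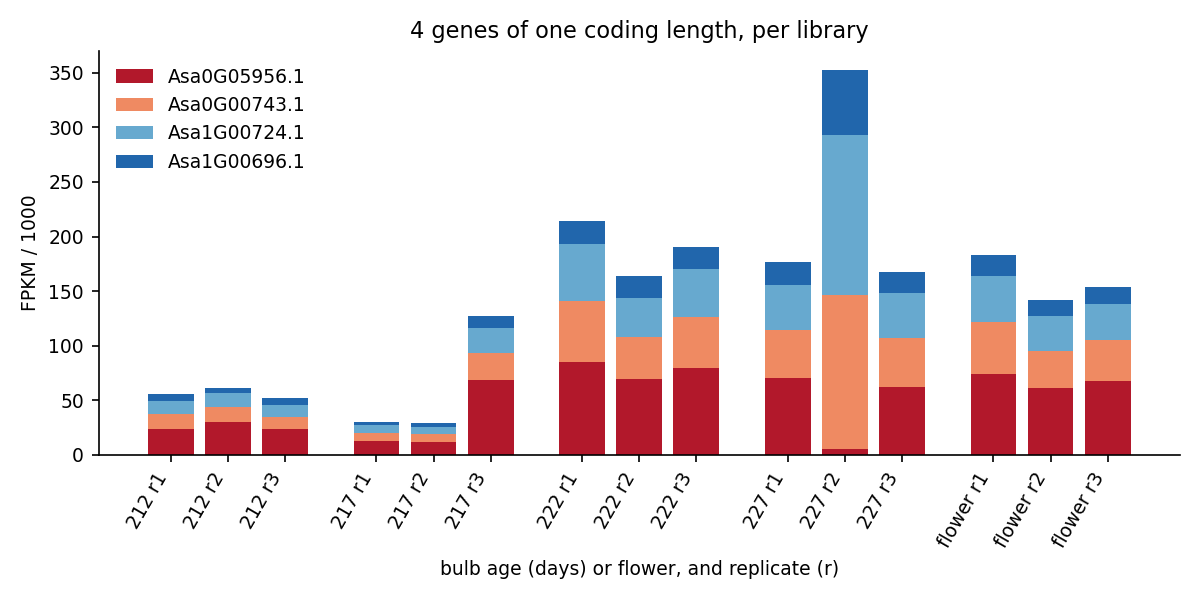
Stacked bars of FPKM divided by 1000 (vertical axis) of 4 genes of 465 bases in each library of 212- to 227-day bulbs and of flowers (horizontal axis). Replicate 2 at 227 days had the tallest bar and 5434 FPKM of Asa0G05956.1, against 61918 and 70465 in the other replicates.

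Outside the leading genes the Asa0G share stayed near 5%, and its direction with age depended on what was left out. With the 10 Asa0G genes of highest mean removed from the class and from the total, the share was 4.04% ± 0.180 in the 222- and 227-day libraries, against 4.88% ± 0.142 in the 192- and 197-day libraries (n = 6 each). It fell by 0.837 percentage points (2-sided exact permutation test, p = 0.00216, adjusted p = 0.00325 over 3 tests). These 10 were picked by their level, most of it in old bulbs, while the abundant genes of the other classes stayed in the total. With the 10 leading genes of each of the 9 classes removed, a setting chosen after the data were seen, the difference was 0.320 points in the other direction (exact permutation p = 0.00433). With only the 3 leading Asa0G genes removed it was 0.308 (exact permutation p = 0.0909). By group, the share without the 10 leading genes of each class was 6.00% ± 0.269 at 227 days and 5.67% ± 0.0502 at 192 days (SD, n = 3). At 227 days replicate 2 had 6.31%, and replicates 1 and 3 had 5.81% and 5.89%. The difference of 0.320 points holds replicate 2.

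The number of Asa0G genes detected did not pass its test between old and young bulbs. It was 32.8% ± 0.909 of the class in the 222- and 227-day libraries, against 31.9% ± 0.892 in the 192- and 197-day libraries (difference 0.894 points, n = 6 each, 2-sided exact permutation p = 0.113, adjusted p = 0.113 over 3 tests). Without replicate 2 of the 227-day bulbs the difference was 1.24 points (exact permutation p = 0.0216, unadjusted). The other IDs were then detected at 46.57% to 47.14% in the later libraries, against 44.60% to 47.01% in the earlier ones. The gap of Asa0G to them was -13.91 to -13.53 points, against -14.29 to -13.63, so its ranges overlapped. Later libraries held 18.7 M to 27 M reads and earlier ones 29.5 M to 35.4 M, and the effect of depth was not tested. With all libraries, the direction of the Asa0G difference turned with the limit for detection: at 5 FPKM it was -0.293 points.

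Across the class, 227-day bulbs were compared with 192-day bulbs in a limma fit of the 24 bulb libraries. A gene was called where the Benjamini-Hochberg adjusted p was below 0.05 and the log2 difference at least 1. Of the 6020 IDs, 2358 had at least 1 FPKM in at least 3 bulb libraries and were tested. Among these 220 were higher at 227 days (9.33%), where 8.32% of all 30430 genes tested were, and 490 were lower (20.8%), where 21.1% of all genes were. The other classes had 7.40% to 8.91% higher and 19.5% to 21.7% lower. The median log2 difference was -0.28 for Asa0G genes and -0.28 for all genes. Without replicate 2 of the 227-day bulbs these medians were -0.13 and -0.16.

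How the calls split into higher and lower changed with scaling. Of the called Asa0G genes, 31.0% were higher when FPKM was used unchanged, against 28.3% of all genes called. Median-of-ratios scaling, which moved the median of all genes to 0.01, gave 331 higher and 309 lower Asa0G genes, so that 51.7% of the calls were higher, against 48.9% over all genes. Quantile normalization gave 300 higher and 311 lower (49.1% higher, against 48.1%). Without replicate 2 of the 227-day bulbs 254 were higher and 392 lower (39.3% higher, against 36.0%).

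Large changes were few. By at least 3 on the log2 scale 44 Asa0G genes rose (1.87% of those tested) and 59 fell (2.50%), against 1.19% and 2.10% of the 28072 other genes tested. By at least 5, 11 rose (0.466%) and 5 fell (0.212%), against 0.253% and 0.150% of the others. The largest falls with a mean of at least 10 FPKM and no overlap were those of Asa0G00675.1 and Asa0G03692.1. The first had 7.30, 0.221 and 3.87 FPKM in 227-day bulbs, from 47, 2 and 25 reads, against 320, 495 and 193 FPKM in 192-day bulbs (log2 difference -6.42 ± 0.69, limma, adjusted p = 3.22e-07, and -5.62 without replicate 2). The second had 1.61, 0.600 and 0.916 FPKM in 227-day bulbs, against 92.9, 85.7 and 92.1 FPKM in 192-day bulbs (-5.51 ± 0.53, adjusted p = 9.45e-08). Buds also held both in quantity, at 212 ± 19.0 and 62.6 ± 22.1 FPKM (SD, n = 3), while leaf, pseudostem and root libraries had at most 0.932 FPKM of either.

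Over all 8 ages, a linear term for age called 252 Asa0G genes higher with age (10.7% of those tested), against 9.60% of all genes, and 409 lower (17.3%), against 18.8%. Asa0G was the highest of the 9 classes in the share called higher by this trend and the lowest in the share called lower, though the other classes reached 10.5% and 18.1%. With median-of-ratios scaling 344 were higher and 308 lower (52.8% of the calls higher, against 50.3% over all genes), and with quantile normalization 298 and 299 (49.9%, against 48.4%). Without replicate 2 of the 227-day bulbs 284 were higher (12.1%, against 11.5% of all genes) and 376 lower (16.0%, against 17.3%). Any difference among the ages, by limma's moderated F test with a range of at least 1 on the log2 scale, was called for 1016 Asa0G genes (43.1%), where 43.0% of all genes tested were called.

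Of these 1016 genes, 347 (34.2%) had their highest mean at 192 days, against 36.0% of the other genes called. Another 171 (16.8%, against 16.2%) were highest at 217 days and 128 (12.6%, against 10.3%) at 212 days. Fewer were highest at 197 days (93, or 9.15%, against 11.6%). The median log2 difference of the 2358 tested genes from 192 days was -0.13 at 197 days, 0.04 at 202, 0.05 at 207, -0.05 at 212, -0.01 at 217, -0.17 at 222 and -0.28 at 227 days. The median of the other classes was -0.18 at 222 days and -0.28 at 227 days, and that of Asa0G differed from it by 0.02 at 202 days and by less at each other age. The 227-day medians hold replicate 2 of that age. Without it the median was -0.13 for Asa0G and -0.16 for all genes tested.

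**Figure D5:**
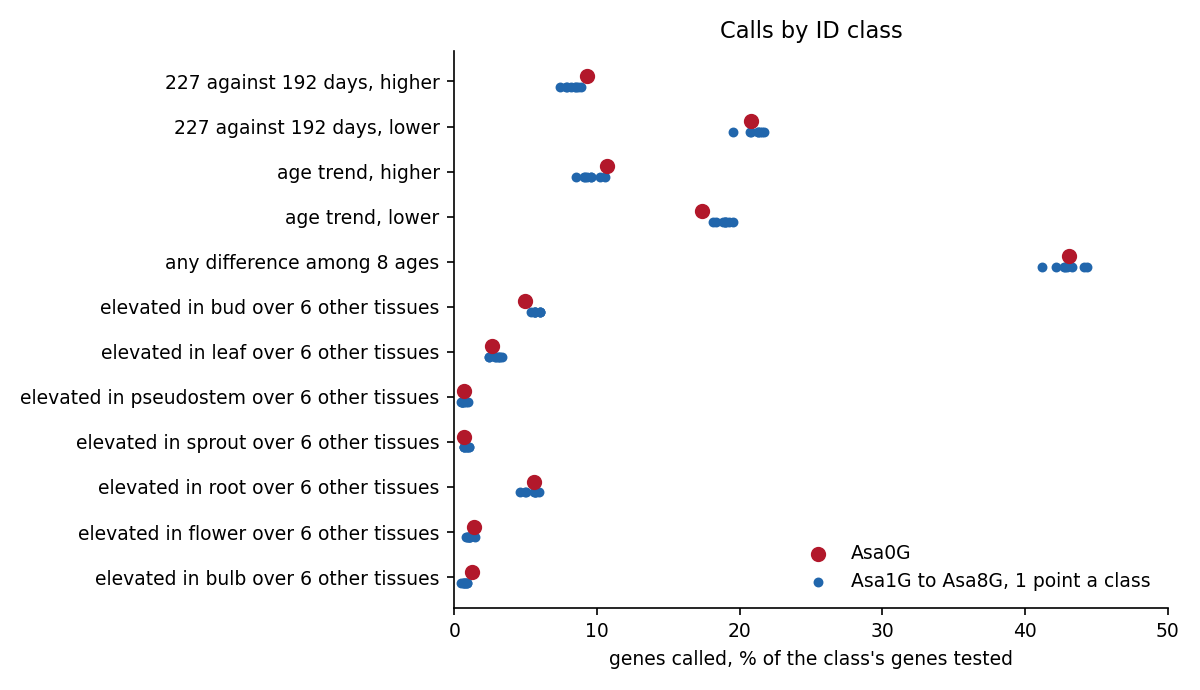
Percent of tested genes called (horizontal axis) in 12 comparisons (vertical axis), Asa0G in red and each of the 8 other classes in blue. Asa0G lay above the other classes in genes higher at 227 days (9.33%, highest other 8.91%), higher by age trend (10.7%, 10.5%) and elevated in bulb (1.27%, 0.913%). It lay below them in genes lower by age trend (17.3%, lowest other 18.1%) and elevated in bud (4.99%, 5.40%). In the other rows it lay within their range.

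Other abundant members followed different courses in the bulb. Asa0G02881.1, the fifth of the class by mean over the 42 libraries and described here after its values were seen, had 5885, 2728 and 6247 FPKM in 227-day bulbs, against 327, 414 and 450 FPKM in 192-day bulbs. The ages did not overlap, and it rose by 3.56 ± 0.33 on the log2 scale (SE, limma, adjusted p = 6.62e-08). Flowers had 8171, 5908 and 6354 FPKM of it and overlapped with the 222- and 227-day bulbs, and leaves had the least, 258 ± 31.1 FPKM (SD, n = 3). Asa0G03197.1 and Asa0G05511.1 were the most abundant Asa0G genes at 192 and 197 days. Asa0G05511.1 had 333, 535 and 284 FPKM in 227-day bulbs, against 1571, 1544 and 1420 FPKM in 192-day bulbs, and fell by 2.03 ± 0.18 on the log2 scale (SE, limma, adjusted p = 3.50e-08). Asa0G03197.1 had 809, 1570 and 753 FPKM in 227-day bulbs, against 2201, 1775 and 1741 FPKM in 192-day bulbs. The ages did not overlap, but its difference of -0.94 missed the limit of 1, while without replicate 2 at 227 days it was called at -1.28. It was highest at 212 days, at 2359 ± 255 FPKM, level with buds (2145 ± 287, SD, n = 3).

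Asa0G02366.1 was the leading Asa0G gene of buds, leaves, pseudostems and sprouts. Pseudostems had 10064, 10141 and 12760 FPKM of it, above every other library, and sprouts had 5451, 8212 and 7173. Leaves had 7619, 2551 and 2379 FPKM and overlapped with sprouts and with buds (2914, 2320 and 3211). Roots and flowers were low, at 43.6 ± 54.4 and 232 ± 111 FPKM. In bulbs it had 3839, 1584 and 5429 FPKM at 227 days, against 457, 440 and 614 FPKM at 192 days (log2 difference 2.69 ± 0.43, SE, limma, adjusted p = 3.48e-05).

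Asa0G03715.1 led in roots, with 3970, 3933 and 3613 FPKM, and was next highest in 212-day bulbs, with 3466, 3141 and 3555 FPKM, each below the root libraries. Leaves had 43.0 ± 13.4 FPKM of it. Its libraries at 207 days differed widely, with 228, 1933 and 4875 FPKM. Asa0G02690.1 was the second member in leaves (2622 ± 571 FPKM) and pseudostems (3673 ± 2405), and it rose in bulbs to 67.1 ± 46.1 FPKM at 227 days, against 5.49 ± 4.05 at 192 days (log2 difference 3.34 ± 0.64, limma, adjusted p = 0.000242). Its bulb mean was highest at 217 days, at 249.7 FPKM.

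A pair of members were abundant in each of the 42 libraries. Asa0G02338.1 ranged from 328 to 1601 FPKM with a median of 1072, lowest in roots (399 ± 70.4 FPKM) and highest in 202-day bulbs (1365 ± 102). Asa0G03912.1 ranged from 253 to 2786 FPKM with a median of 920, lowest in 192-day bulbs (306 ± 46.6) and highest in sprouts (2274 ± 487). It rose by 1.71 ± 0.29 on the log2 scale between the end points of the bulb series (SE, limma, adjusted p = 6.02e-05), while the difference of Asa0G02338.1, 0.64 ± 0.20, was below the limit of 1.

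Tissues were compared in a limma fit of 21 libraries, with the 212-day bulbs as bulb, in which 2668 Asa0G genes were tested. A gene was elevated in a tissue if it was called higher there than in each of the 6 others. In roots 149 Asa0G genes were elevated (5.58%), where 5.36% of all genes tested were, and in buds 133 (4.99%), where 5.67% of all were. The root count was 96 without replicate 1 of the roots (3.67%, where 4.26% of all were), 98 without replicate 2 (3.75%, where 3.99% were) and 106 without replicate 3 (4.06%, where 4.41% were), so Asa0G lay above the whole table with all 3 root libraries and below it with any 1 left out. Leaves had 70 (2.62%), where 2.92% of all were, and flowers 36 (1.35%), where 1.08% were.

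Bulbs had 34 elevated Asa0G genes (1.27%), where 0.775% of all genes were, pseudostems 19 (0.712%), where 0.650% were, and sprouts 19 (0.712%), where 0.832% were. The other classes had 0.441% to 0.913% elevated in bulbs. The Asa0G bulb count was 4 (0.150%) when 217-day bulbs stood for bulb, where 98 genes of the whole table were elevated (0.292%). The sprout count was 12 without replicate 1 of the sprouts (0.451%, where 0.706% of all were).

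The largest differences from the nearest tissue were in roots and flowers. Asa0G00352.1 had 278, 148 and 290 FPKM in roots, while each other library had at most 1.03 FPKM (log2 difference from the nearest tissue 7.44 ± 0.22, SE, limma, largest adjusted p = 1.89e-14). Asa0G01050.1 had 143, 225 and 143 FPKM in roots and at most 2.71 FPKM elsewhere (6.78 ± 0.33, largest adjusted p = 1.12e-11). Of the 149 genes elevated in roots, 35 exceeded the nearest tissue by 3 or more on the log2 scale (23.5%, where 19.6% of the root-elevated genes of all classes did). The count was 9 in buds (6.77%, where 6.62% of all did) and 8 in flowers (22.2%, where 14.1% did). It was 3 in leaves (4.29%, where 2.76% did) and 3 in pseudostems (15.8%, where 7.34% did). Sprouts had 1 (5.26%, where 6.45% did) and bulbs 0 (where 4.23% did).

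In flowers the leading genes were Asa0G05981.1 and Asa0G05980.1, which have consecutive numbers. The first had 95.1, 154 and 319 FPKM in flowers (7.37 ± 0.27, limma, largest adjusted p = 2.14e-12) and the second 77.4, 109 and 211 FPKM (6.85 ± 0.23, largest adjusted p = 9.91e-13). The 3 flower libraries kept the same order in both. In 222-day bulbs the first had 18.7, 0.245 and 6.06 FPKM and the second 14.2, 0.241 and 6.42 FPKM, so the bulb libraries also kept an order, and no other library outside 222- and 227-day bulbs and flowers had more than 0.187 FPKM of either.

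Consecutive numbers also led in pseudostems, with Asa0G05731.1 and Asa0G05732.1, both of 489 bases. They had 53.9, 190 and 88.9 FPKM and 35.2, 117 and 58.9 FPKM in the 3 pseudostem libraries, with log2 differences of 3.33 ± 0.69 and 3.22 ± 0.64 from the nearest tissue (SE, limma, largest adjusted p = 0.000740 and 0.000709). In replicate 2 of the 217-day bulbs they had 104 and 61.1 FPKM, and against 217-day bulbs neither was called.

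In buds, Asa0G05604.1 had 119, 111 and 99.4 FPKM, and no other library had more than 8.57 FPKM (4.84 ± 0.52, limma, largest adjusted p = 3.91e-07). Asa0G02184.1 had 38.4, 32.7 and 25.7 FPKM in buds (4.32 ± 0.16) and was present in the youngest bulbs, at 17.1, 13.7 and 10.9 FPKM at 192 days, with at most 0.347 FPKM at 227 days. In leaves, Asa0G04400.1 had 88.1, 64.3 and 89.5 FPKM (3.98 ± 0.26), and Asa0G00038.1 had 14.5, 21.4 and 12.3 FPKM (3.80 ± 0.19), with at most 0.729 FPKM in any other library.

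In sprouts, Asa0G05075.1 had 262, 1699 and 740 FPKM, above buds (48.0, 52.2 and 115) by 3.37 ± 0.53 on the log2 scale, and Asa0G04644.1 had 71.4, 88.0 and 101 FPKM, above buds by 2.29 ± 0.20. In bulbs, Asa0G03249.1 had 74.9, 111 and 36.3 FPKM at 212 days (2.76 ± 0.38 above the nearest tissue). It had 279, 39.0 and 138 FPKM in 227-day bulbs and no read in 192-day bulbs. Asa0G00079.1 had 53.4, 38.7 and 58.8 FPKM at 212 days (2.63 ± 0.43), its highest bulb age, and was not called against the other tissues with 217-day bulbs.

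Members elevated in a tissue took different courses in bulbs. Of the 125 bud-elevated Asa0G genes that were tested in bulbs, 108 were lower (86.4%) and 1 higher at 227 than at 192 days, with a median log2 difference of -2.30. Of the 1784 bud-elevated genes of all classes tested 1480 were lower and 3 higher, with a median of -2.01. Each list was drawn against 212-day bulbs of the same series, so lists and courses are not independent. Whether this favoured a fall in the bud list was not tested. Of 33 flower-elevated Asa0G genes tested, 14 were higher (42.4%, where 51.5% over all classes were) and 1 lower, with a median of 1.44, against 1.27 over all classes. Of 63 root-elevated ones 18 were higher (28.6%, where 17.7% over all classes were) and 5 lower, with a median of 0.52, against 0.31.

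Asa0G genes were more often nearest to a gene of the same length than genes of the other classes were. Among 1475 Asa0G genes with a recovered length and a mean of at least 10 FPKM in some group, 67 (4.54%) had as their nearest gene over the 42 libraries, with r of at least 0.9, a gene of exactly their length. Among 19121 other genes 472 had (2.47%), with 1.999% to 3.22% by class. Of the 67 partners, 14 were Asa0G genes themselves and the others lay in the Asa1G to Asa8G classes. Among the other 472 genes, 297 had their partner in their own class. No sequence was at hand beyond the length, and equal length does not show equal sequence. Asa0G genes with a recovered length were also shorter in median than those of the other classes. How often genes of such lengths would match in length without being related was not tested.

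Neighbours in number were alike to about the same degree as in the other classes. Over 1632 pairs of Asa0G genes with consecutive numbers the median r of log2(FPKM + 1) over the 14 group means was 0.24, and 173 pairs (10.6%) had r over 0.9. In the other classes the medians lay between 0.25 and 0.29, with 8.27% to 10.2% of pairs over 0.9. The share over 0.9 was 2.59% for Asa0G numbers 2 apart, below each of the other classes (2.66% to 3.60%). It was 1.23% for numbers 5 apart (1.05% to 1.85% in the other classes) and 0.685% for numbers 100 apart (0.402% to 0.733%).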

How the data were processed

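Values deposited by the authors are FPKM for 58219 gene IDs in 42 libraries. Per the submitters' processing notes, Bowtie2 and RSEM were used; for their versions, the reference sequence and the counting of reads shared by near-identical genes, nothing is given in the sources used here. Every column matched 1 sample by title and 0 were left over. The series text also names 48 sequenced samples; the 42 listed were used. Tissue ages follow the labels, although the growth protocol dates the tissue harvest to the day of the 217-day bulbs.

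FPKM values of each gene were whole multiples of 1 step per library, which gave whole reads for all 45750 genes above 0 (tolerance 0.001) and a length for 36291 genes above 0 in at least 20 libraries; 94.5% of lengths were multiples of 3, hence coding length. Recovered reads were 90.4% to 95.1% of the reads that the FPKM scale implies and served for depth, length, the chi-square between replicates, the reads behind single genes and 1 alternative class share, and for no test across genes. On simulated counts 100% were returned. FPKM is scaled to a library's mapped fragments, so genes that climb steeply lower the values of the rest. Replicates differed beyond sampling noise in each pair (lowest chi-square per degree of freedom 10.8).

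Tests across genes ran on log2(FPKM + 1) over the whole table with limma 3.58.1 in R 4.3.3 (group means, variance trend, Benjamini-Hochberg), for genes that reached 1 FPKM in 3 or more libraries. Differences on this scale understate changes near 1 FPKM. The tests were tried on simulated data. Class shares and detection used exact permutation tests over libraries in Python with NumPy.

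The ID class, the comparisons and the lists were chosen with earlier results of these data known. Genes named are the 2 largest rises and falls called at 227 against 192 days without overlap and with a mean of at least 10 FPKM, the 2 elevated genes per tissue furthest from the nearest tissue with a mean of at least 10 FPKM, the 2 highest in each group, the 2 with the highest minimum, and any that held over 50% of the Asa0G sum. Asa0G04472.1, Asa0G02881.1 and the Asa1G genes were chosen after their values were seen. Alternatives were another pseudocount (0.1), filters (none, 5 FPKM), median-of-ratios scaling, quantile normalization, a replicate block, the end points alone, other genes left out of the sums and each library left out in turn.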

Additional observations from a re-analysis of the deposited data

How the results depend on the processing

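For the Asa0G counts of calls, a pseudocount of 0.1, no filter, the 6 end-point libraries alone and the replicate block stayed within 1.5 times. With the replicate block 216 genes were higher at 227 days and 488 lower, and the block moved no count by over 1.5 times and changed no call of a difference between old and young bulbs (exact sign-flip p = 0.0312 for the share, the smallest it allows). Replicate numbers did not pair the libraries: deviations of same-numbered libraries had a median r of -0.02 over 84 pairs (lowest -0.30). Median-of-ratios scaling gave 331 higher and 309 lower genes and quantile normalization 311 lower. A filter of 5 FPKM left 12 sprout-elevated genes of 1816 tested (0.661%, where 0.873% of all were). The main fit had 19 of 2668 (0.712%, where 0.832% of all were). With 217-day bulbs as bulb 4 bulb-elevated genes were left (0.150%, where 0.292% of all were), and the cause was not tested. Between 227 and 192 days alone the share differed by 12.6 points and the share without the 10 leading Asa0G genes by -1.004, both at an exact permutation p of 0.10, the smallest that 3 against 3 allows. The difference over all 12 libraries, -0.837 without those 10 genes, was instead 0.320 without the 10 leading genes of each class and 0.308 without the 3 leading Asa0G genes, both chosen after seeing the data. The difference in detection turned to -0.293 points at 5 FPKM, and the detection gap was -10.8 points at 5 FPKM and -12.0 among genes above 0 somewhere. With each library left out in turn, the higher calls ranged from 188 to 254, the lower from 392 to 593, the trend calls from 227 to 284 and 376 to 426, any age from 947 to 1144, and elevated genes from 116 to 137 in buds, 62 to 87 in leaves, 17 to 24 in pseudostems, 12 to 22 in sprouts, 96 to 151 in roots, 28 to 41 in flowers and 26 to 40 in bulbs. The share difference ranged from 12.6 to 13.3 points, that without the 10 leading genes from -0.883 to -0.788 and that in detection from 0.621 to 1.24. Of the named genes, Asa0G05731.1, Asa0G05732.1 and Asa0G00079.1 lost their call with 217-day bulbs as bulb. In leaf replicate 1, the shallowest library, 1 FPKM rested on the fewest reads.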
